A study of Mus musculus with 9 samples.

Results

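The AML12 line of mouse hepatocytes was compared with and without a mixture of 2 fatty acids. The treated group, written PA/OA below, was given 0.2 mM PA and 0.4 mM OA for 24 h, read here as palmitic and oleic acid, and the control group was left untreated. Cells of both groups were grown in DMEM with 10% FBS. Each group had 3 libraries, which are 6 of the 9 in the study, and the other 3 came from cells that received the peptide Ang(1-7) before the fatty acids and are not used here. All 6 libraries stand in 1 table of read counts, and every gene listed there was compared, 6213 in all. No library came from cells given only the vehicle of the fatty acids, so an effect of the vehicle and one of the fatty acids cannot be told apart. AML12 is a single immortalised line, derived from mice with a transgene for human TGF-alpha, and not fresh liver tissue. Separate cultures for the 3 libraries of a group are not stated in the labels. The p-values therefore rest on the spread among these libraries, and that spread may be technical only.

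Hepatocytes take up fatty acids, couple them to coenzyme A, and burn them in mitochondria and peroxisomes, store them as triglyceride in lipid droplets, or export them in lipoproteins built around apolipoprotein B. Palmitate is a saturated fatty acid and oleate a monounsaturated one, and a mixture of both is widely used to load cultured hepatocytes with fat. Fatty acids also act as ligands of PPAR receptors, which switch on genes of fatty acid use. Stressed hepatocytes can in addition secrete chemokines, the small proteins that attract leukocytes, and acute phase proteins, which the liver releases into blood during inflammation.

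Reads counted in the table totalled 27357654, 27130285 and 26576151 for controls 1 to 3, and for PA/OA 1 to 3 the totals were 25887076, 24912692 and 25441680. At this depth a gene of the median level had a mean of 629 counts per library. Libraries of 1 group differed by more than counting noise (chi-square per degree of freedom 21.3 to 34), and libraries of different groups by more still (46.3 to 76.7). Correlations of log2 CPM did not separate the groups in this way, at 0.971 to 0.984 within a group and 0.968 to 0.979 between groups. On the first principal component, with 32.5% of the variance, PA/OA 1 to 3 lay at 12, 17.3 and 12.3 and controls 1 and 2 at −5.96 and −3.20, while control 3 stood apart at −32.4. Values are CPM, that is, counts divided by library totals that were adjusted by trimmed mean scaling, and results are given with each library left out below.

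Of the genes tested, 6 of 18 for chemokines and cytokines and 3 of 15 of retinoid metabolism rose in the fatty acid libraries. Acot1, Acot2 and the lipoprotein gene Apob rose too, whereas Ttr, Aqp1 and 32 of 65 histone genes fell. Of 10 acute phase genes 4 were called higher, but Saa3 and Lcn2 among them are listed only through the fatty acid libraries. By the quasi-likelihood test of edgeR (Benjamini-Hochberg adjustment, threshold 0.05), 314 of 6213 genes were called, which is 5.05%. Of these, 175 (2.82%) were higher and 139 (2.24%) lower in PA/OA, with a median log2 change of 0.49 and −0.36, against 0.01 over all genes. Rises reached larger sizes than falls, since 28 of the higher and 5 of the lower genes changed at least 2-fold. The count depended on single libraries: it was 99 without control 1, 226 without control 2, 200 without control 3, 397 without PA/OA 1, 147 without PA/OA 2 and 134 without PA/OA 3. A core of 78 genes (1.26%) was called in each of these 6 fits, 51 higher (0.821%) and 27 lower (0.435%). These are called stable below, with 15 rises and 2 falls of at least 2-fold among them. A stable gene also had to have groups that did not overlap and a mean of at least 50 counts. Neither condition removed a gene, but non-overlap of a stable gene is part of its definition and adds no support. The groups did not overlap in 23.8% of all genes (12.2% higher and 11.6% lower), and that share is the background for every statement below that groups did not overlap. All 78 were called in edgeR with the replicate number as a block, with DESeq2 size factors and with upper quartile scaling. The text dwells on these genes, and 19 of them lay outside the naming rule and were chosen after their values were seen (Ccl2, Ccl9, Colgalt1, Cotl1, Cpe, Ext1, Fam102b, Hist1h3c, Hist2h2bb, Igf2bp2, Igsf23, Igsf8, Itpripl2, Klf11, Ms4a4d, Sema3c, Serpinb9b, Setd7 and Tmem59).

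**Figure D1:**
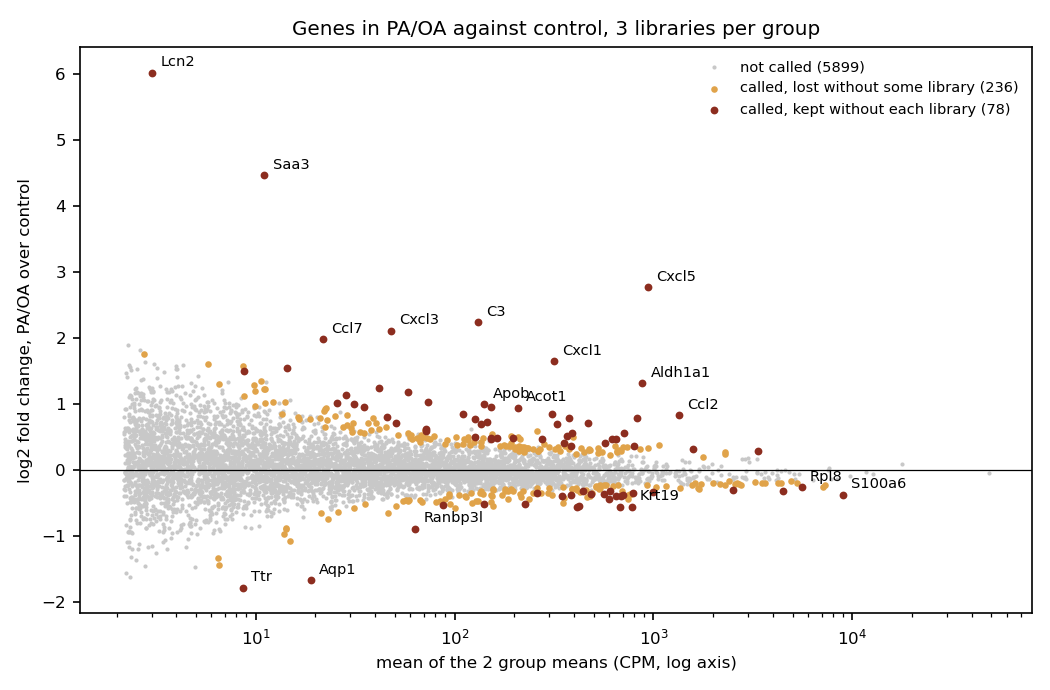
Each point is 1 of the 6213 genes, with the mean of both group means in CPM on a log axis against the log2 fold change of PA/OA over control in edgeR. The 78 stable genes (dark red) lie above and below 0, with Lcn2, Saa3 and Cxcl5 the highest of them and Ttr and Aqp1 the lowest of the stable genes.

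Among the chemokine genes that rose, the promoters of Cxcl1, Cxcl3 and Ccl9 are shown because the RefSeq promoter table (GRCm38.p6, 250 bases before to 50 after the start) holds those 3 of the 6, and each contains GGG, any 3 bases and TTCC in a row, a short form of the NF-kB motif, on 1 strand or the other. NF-kB is the transcription factor that drives many inflammatory genes. Capitals mark the matches, and where 2 matches overlap they share 1 run of capitals.
Cxcl1, chr5:90890995-90891294, plus strand: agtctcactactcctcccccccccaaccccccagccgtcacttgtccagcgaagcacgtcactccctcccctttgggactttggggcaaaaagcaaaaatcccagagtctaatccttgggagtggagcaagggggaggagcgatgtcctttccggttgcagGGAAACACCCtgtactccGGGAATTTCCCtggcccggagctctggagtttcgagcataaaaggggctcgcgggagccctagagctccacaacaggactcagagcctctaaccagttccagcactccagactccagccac
Cxcl3, chr5:90785851-90786150, plus strand: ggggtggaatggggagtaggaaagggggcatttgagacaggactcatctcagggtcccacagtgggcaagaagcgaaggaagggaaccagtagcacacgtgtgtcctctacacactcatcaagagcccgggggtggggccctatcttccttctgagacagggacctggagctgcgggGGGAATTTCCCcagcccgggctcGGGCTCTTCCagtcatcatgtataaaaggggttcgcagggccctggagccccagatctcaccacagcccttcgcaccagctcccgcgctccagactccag
Ccl9, chr11:83578587-83578886, minus strand: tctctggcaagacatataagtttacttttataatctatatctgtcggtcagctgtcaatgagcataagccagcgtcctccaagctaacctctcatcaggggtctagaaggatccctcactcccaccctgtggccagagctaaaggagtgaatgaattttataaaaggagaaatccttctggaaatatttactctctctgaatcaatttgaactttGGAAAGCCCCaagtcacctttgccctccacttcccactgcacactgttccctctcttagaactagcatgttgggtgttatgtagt
The matches begin between 89 and 70 bases before the start in Cxcl1, between 73 and 50 in Cxcl3, and 35 bases before it in Ccl9. The motif was found in 5.56% of 32841 promoters of the table and in 6.75% of those of the genes tested. It was present in 7 of 42 promoters of stable higher genes and in 3 of 13 of stable lower genes, and in 0 of 6 promoters of the called acute phase and complement genes. The 42 promoters belong to 39 genes, so promoters are not separate genes. Those with the motif were of Ankrd1, Ccl9, Colgalt1, Cxcl1, Cxcl3 and Itga2, and Colgalt1 was counted more than once, for the same site in overlapping windows. A match describes letters in this window and is not a measured binding site. Of other short motifs searched on both strands, the AP-1 letters TGANTCA were in 3 of the 42 promoters of stable higher genes (7.14%, against 5.24% for the genes tested), the TEAD letters GGAATG in 8 (19%, against 12%) and the octamer motif in 2 (4.76%, against 1.47%). The octamer promoters were those of the neighbouring paralogs Aldh1a1 and Aldh1a7.

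Of 18 chemokine and cytokine genes tested, 6 rose and 0 fell (33.3% of the list, with a median log2 change of 0.72 against 0.01 over all genes). The count was 6 in each fit without 1 library and in every other setting tried. The CXC chemokines of the group attract neutrophils. Cxcl5 stood at 240.4, 249.6 and 230.0 CPM in controls 1 to 3 and 1703, 1509 and 1674 in PA/OA 1 to 3, a 6.79-fold rise (log2 change 2.76, SE 0.07, adjusted p = 4.93e-17). Cxcl1 was at 168, 152 and 140.1 CPM in controls 1 to 3 and 515, 477 and 452 in PA/OA 1 to 3 (log2 change 1.65, SE 0.08, adjusted p = 1.33e-11). Cxcl3, at a lower level, went from 18.4, 18 and 17.8 in controls 1 to 3 to 87.9, 71.2 and 74.1 in PA/OA 1 to 3 (log2 change 2.11, SE 0.14, adjusted p = 2.84e-09). In all 3 genes the fatty acid libraries lay above every control with wide gaps, although for stable genes that order is part of the definition. The CC chemokines Ccl2 and Ccl7 attract monocytes through the receptor Ccr2, and their genes are neighbours. Ccl2 was already abundant in control cells, with 1058, 882 and 968 CPM in controls 1 to 3 and 1788, 1646 and 1737 in PA/OA 1 to 3, and rose 1.78-fold (log2 change 0.83, SE 0.07, adjusted p = 4.62e-08). Ccl7 had 10.2, 10.8 and 5.44 CPM in controls 1 to 3 and 37.7, 33.2 and 33.3 in PA/OA 1 to 3, with control 3 the lowest (log2 change 1.97, SE 0.23, adjusted p = 1.50e-05). Ccl9, a ligand of Ccr1, had 266, 258 and 232 CPM in controls 1 to 3 and 408, 382 and 427 in PA/OA 1 to 3 (log2 change 0.69, SE 0.08, adjusted p = 6.08e-06). The rises therefore ran from 1.61-fold for Ccl9 to 6.79-fold for Cxcl5. Not every chemokine gene passed: Cxcl2 had a log2 change of 1.16 (SE 0.45, adjusted p = 0.146) and Ccl20 of −0.07 (SE 0.18, adjusted p = 0.894), and the libraries of both groups overlapped for Ccl20. Reads can be shared among CXC chemokine genes of like sequence, and how such reads were counted is not stated.

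**Figure D2:**
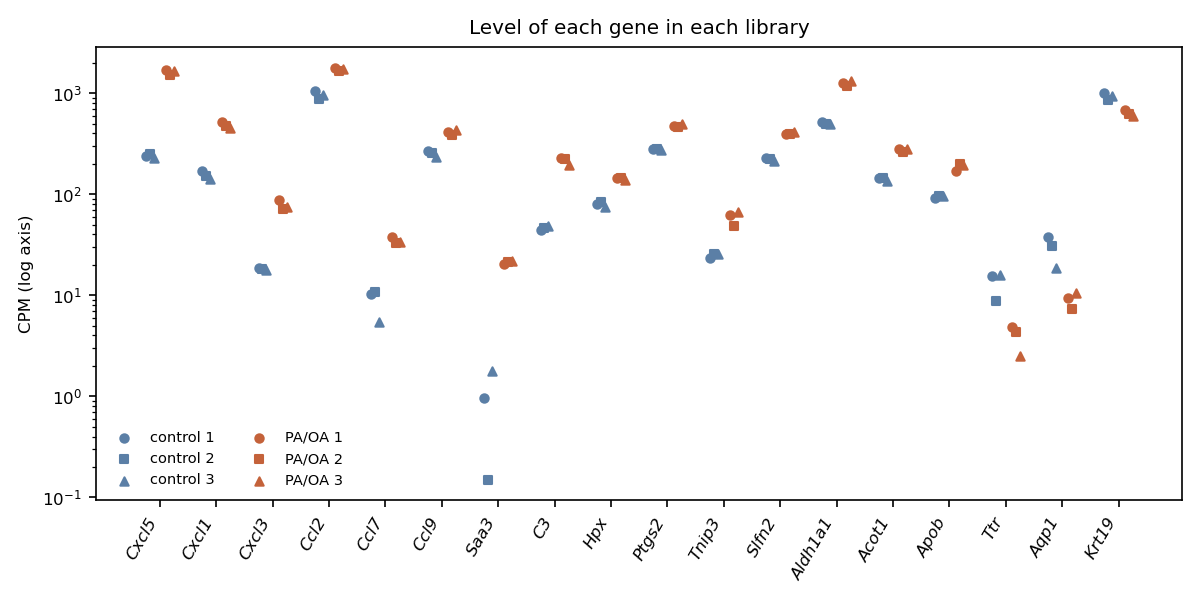
Level in CPM (log axis) of 18 stable genes in each of the 6 libraries, controls in blue and PA/OA in orange, with 1 symbol per replicate number. The libraries of the groups do not overlap for any of the 18 genes, as the definition of stable requires. Ttr, Aqp1 and Krt19 are the ones with higher levels in controls.

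Of 10 acute phase genes of the liver tested, 4 rose and 0 fell (median log2 change 0.58 against 0.01 over all genes), and the stable ones were Saa3, Lcn2 and Hpx. The other was Il6st, the shared receptor subunit of the interleukin 6 family rather than a plasma protein: Il6st had a log2 change of 0.31 (SE 0.07, adjusted p = 0.0172) but lost its call without control 1 or PA/OA 2 or 3 (adjusted p = 0.0546 to 0.106). Saa3, a serum amyloid A gene, had 26, 4 and 46 counts in controls 1 to 3 and 525, 547 and 562 in PA/OA 1 to 3, which is 0.963, 0.149 and 1.76 CPM in controls 1 to 3 and 20.3, 21.3 and 21.8 in PA/OA 1 to 3. Its log2 change was 4.46 (SE 0.46) and moved to 5.24 without control 3. Lcn2, which encodes the siderophore-binding lipocalin 2, was read 6, 0 and 1 times in controls 1 to 3 and 273, 106 and 82 times in PA/OA 1 to 3. The fitted log2 change of Lcn2, 6.02 (SE 0.82), depends on the prior count and is no bound, and it was 7.97 without control 1 and 5.31 without PA/OA 1. The mean control counts of Saa3 (25.3) and Lcn2 (2.33) lie under the lowest mean of any transcript listed (56.8). Both genes are thus in the table, and in reach of the naming rule, only through the fatty acid libraries, so their calls are given as a description and support nothing. Hpx, the plasma heme binder hemopexin, was at 79.1, 84.1 and 73.8 CPM in controls 1 to 3 and 143, 146 and 137 in PA/OA 1 to 3 (log2 change 0.85, SE 0.10, adjusted p = 1.24e-05). The iron carrier gene Trf rose less, with 494, 445 and 539 CPM in controls 1 to 3 and 701, 665 and 592 in PA/OA 1 to 3 (log2 change 0.41, SE 0.08, adjusted p = 0.00392). Saa3, Lcn2, Hpx and Trf are all stable, so groups that do not overlap are part of their definition and add no support. Hp, haptoglobin, missed the threshold with a log2 change of 1.20 (SE 0.35, adjusted p = 0.0513).

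Complement transcripts were led by C3, the component on which all complement pathways converge. C3 stood at 43.8, 46.1 and 47.9 CPM in controls 1 to 3 and 227, 225 and 195 in PA/OA 1 to 3, a 4.70-fold rise (log2 change 2.23, SE 0.10, adjusted p = 4.04e-12). Of 10 complement genes tested, 3 rose and 0 fell (30% of the list, median log2 change 0.21) and 1 was called without control 2. C3 was the stable one, and the others were C1ra and C2, proteins of the classical pathway: C1ra had a log2 change of 0.64 (SE 0.14, adjusted p = 0.0114) but lost its call without control 2 (adjusted p = 0.0513). C2 had a log2 change of 0.60 (SE 0.15, adjusted p = 0.0194) but lost its call without control 2 or 3 or PA/OA 3 (adjusted p = 0.0747 to 0.0979).

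Some feedback and effector genes of inflammatory signalling rose as well, while most of those tested were not called. Of 25 genes of the NF-kB pathway, 4 rose and 0 fell (16% of the list, with a median log2 change of 0.49 against 0.01 over all genes), and Ptgs2, Tnip3 and Ier3 were stable. The other was the transcription factor gene Cebpd, named after its values were seen: Cebpd had a log2 change of 1.60 (SE 0.38, adjusted p = 0.0168) but lost its call without control 1 or 2 or PA/OA 1 or 2 (adjusted p = 0.0501 to 0.0993). Ptgs2, the inducible cyclooxygenase of prostaglandin synthesis, was at 278, 279 and 275 CPM in controls 1 to 3 and 475, 466 and 497 in PA/OA 1 to 3 (log2 change 0.79, SE 0.07, adjusted p = 1.35e-07). Tnip3, which encodes an inhibitor of NF-kB signalling that binds the protein A20, was at 23.4, 25.5 and 25.8 CPM in controls 1 to 3 and 62, 48 and 66.2 in PA/OA 1 to 3 (log2 change 1.24, SE 0.15, adjusted p = 2.56e-05). Ier3, an early response gene, was at 364, 375 and 329 CPM in controls 1 to 3 and 635, 533 and 567 in PA/OA 1 to 3 (log2 change 0.70, SE 0.08, adjusted p = 5.78e-06). Transcripts of other subunits and inhibitors did not pass: Rela had a log2 change of 0.06 (SE 0.27, adjusted p = 0.94), Nfkbia of 0.27 (SE 0.08, adjusted p = 0.0638) and Tnfaip3 of 0.34 (SE 0.15, adjusted p = 0.214). Slfn2, a member of the interferon-inducible schlafen family, rose with 229, 222 and 215 CPM in controls 1 to 3 and 396, 390.1 and 409 in PA/OA 1 to 3 (log2 change 0.85, SE 0.07, adjusted p = 1.23e-07). It was 1 of 2 genes called among 31 of interferon response and antigen presentation, where the median log2 change was 0.12. The other was B2m, the light chain of MHC class I. B2m had a log2 change of 0.29 (SE 0.08, adjusted p = 0.0286) but lost its call without control 1 or 3 or PA/OA 1 or 3 (adjusted p = 0.0883 to 0.141). Pilra, an inhibitory receptor gene, had 47.4, 50.5 and 48 CPM in controls 1 to 3 and 103, 94.1 and 99.2 in PA/OA 1 to 3 (log2 change 1.02, SE 0.11, adjusted p = 5.78e-06), and Ms4a4d 98, 104 and 110.2 CPM in controls 1 to 3 and 229, 189.9 and 183 in PA/OA 1 to 3 (log2 change 0.95, SE 0.10, adjusted p = 2.93e-06). Each of these stable genes had groups that did not overlap, as the definition of stable requires.

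Retinoid metabolism had members that moved in both directions. Of 15 genes tested, 3 rose and 1 fell in edgeR's test, the same counts in each fit without 1 library, beside a list median of 0.09. Rdh10, which oxidises retinol to retinal, was at 554, 573 and 590.3 CPM in controls 1 to 3 and 883, 839.5 and 806 in PA/OA 1 to 3 (log2 change 0.56, SE 0.06, adjusted p = 8.32e-06). Aldh1a1, which oxidises retinal to retinoic acid, was at 523, 493 and 494 CPM in controls 1 to 3 and 1270.1, 1179 and 1309.7 in PA/OA 1 to 3, a 2.49-fold rise (log2 change 1.32, SE 0.06, adjusted p = 8.36e-12). Its neighbour and close paralog Aldh1a7 went from 9.37, 5.92 and 6.78 CPM in controls 1 to 3 to 17.9, 24.5 and 21.8 in PA/OA 1 to 3 (log2 change 1.54, SE 0.25, adjusted p = 7.29e-04). Because Aldh1a7 is near-identical to Aldh1a1 over much of its sequence and far lower, its own value is uncertain where reads could be shared. Ttr, whose product transthyretin carries thyroxine and the retinol-binding protein, fell by 1.79 on the log2 scale (SE 0.34, adjusted p = 0.00357), from 15.6, 8.68 and 16 CPM in controls 1 to 3 to 4.83, 4.33 and 2.48 in PA/OA 1 to 3. The retinol-binding protein gene Rbp4 was not called (0.07, SE 0.18, adjusted p = 0.895).

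Genes of fatty acid use rose in part. Acot1 and Acot2, neighbouring genes for the acyl-CoA thioesterases of cytosol and mitochondria, were stable. Acot1 was at 146, 146 and 136 CPM in controls 1 to 3 and 283, 260.3 and 277 in PA/OA 1 to 3 (log2 change 0.94, SE 0.08, adjusted p = 1.35e-07), and Acot2 at 24.4, 19 and 19.4 CPM in controls 1 to 3 and 38, 41.3 and 46 in PA/OA 1 to 3 (log2 change 0.99, SE 0.17, adjusted p = 0.00106). Both had all fatty acid libraries above all controls, which for stable genes is part of the definition. As close paralogs they can share reads. Among 27 PPAR-alpha targets and genes of fatty acid oxidation 5 rose and 0 fell (18.5% of the list, with a median log2 change of 0.14 against 0.01 over all genes), but only 2 or 3 were called in each fit without 1 library. Beside both Acot genes these were Cpt1a, the carnitine-acylcarnitine carrier gene Slc25a20 and the uncoupling protein gene Ucp2, the last named after its values were seen. Slc25a20 had a log2 change of 0.53 (SE 0.13, adjusted p = 0.0207) but lost its call without control 2 or 3 or PA/OA 3 (adjusted p = 0.0832 to 0.0944). Ucp2 had a log2 change of 1.11 (SE 0.31, adjusted p = 0.0439) but lost its call without control 1 or 2 or PA/OA 1, 2 or 3 (adjusted p = 0.0562 to 0.207). Cpt1a, the entry enzyme of mitochondrial fatty acid oxidation, was at 1.07, 1.49 and 1.23 CPM in controls 1 to 3 and 4.79, 4.56 and 3.41 in PA/OA 1 to 3 (log2 change 1.75, SE 0.49, adjusted p = 0.0439), and its call ended without each of the 6 libraries (adjusted p = 0.0794 to 0.163). Cpt1a too, with a mean of 33.7 control counts, is in the table only through the fatty acid libraries. Enzymes of the oxidation spiral itself did not pass, with a log2 change of 0.05 (SE 0.09, adjusted p = 0.816) for Acadm and −0.10 (SE 0.08, adjusted p = 0.509) for Hadha. Of 22 peroxisome genes 0 were called in edgeR's test (median log2 change 0.15), and the groups of 2 did not overlap. At an unadjusted p under 0.05 there were 2, DESeq2 called 1 and limma-voom 0, against 1204, 533 and 311 of all 6213 genes. The PPAR direct repeat, AGGTCA written again after 1 base and searched on both strands, was in 13 of 32841 promoters (0.0396%) and in 1 of 42 promoters of stable higher genes. That promoter, of the immunoglobulin superfamily gene Igsf23, is shown with the match in capitals, read on the other strand.
Igsf23, chr7:19950694-19950993, minus strand: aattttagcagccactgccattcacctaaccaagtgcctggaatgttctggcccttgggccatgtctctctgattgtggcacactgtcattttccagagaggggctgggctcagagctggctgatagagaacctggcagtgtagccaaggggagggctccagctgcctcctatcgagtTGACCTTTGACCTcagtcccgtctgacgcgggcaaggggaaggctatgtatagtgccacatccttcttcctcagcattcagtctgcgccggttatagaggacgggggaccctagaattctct
The match lies 72 bases before the start of Igsf23, whose level was 33.3, 27.7 and 39.5 CPM in controls 1 to 3 and 62.9, 51.6 and 59.98 in PA/OA 1 to 3 (log2 change 0.79, SE 0.15, adjusted p = 0.00357). The promoters of Acot1, Acot2 and Cpt1a in the same table did not hold these letters in this window.

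Lipid storage, synthesis and export did not move together. Apob, the structural protein of very low density lipoprotein, was at 90.9, 96.4 and 95.3 CPM in controls 1 to 3 and 170.0, 198 and 196 in PA/OA 1 to 3 and rose 2.00-fold (log2 change 1.00, SE 0.09, adjusted p = 5.91e-07). It was the 1 gene called among 5 of lipoproteins and sterol efflux. Of 17 lipid droplet and triglyceride genes only Plin2, a droplet coat protein listed through 1 transcript, was called, at 4.37, 4.17 and 2.80 CPM in controls 1 to 3 and 12.3, 7.45 and 8.07 in PA/OA 1 to 3 (log2 change 1.29, SE 0.35, adjusted p = 0.0386), and its call ended without each of the 6 libraries (adjusted p = 0.0611 to 0.154). Scd1, the desaturase that makes oleate from stearate, fell by 0.36 on the log2 scale (SE 0.06, adjusted p = 0.00177), with 846, 946 and 872 CPM in controls 1 to 3 and 694, 678 and 707 in PA/OA 1 to 3. Insig1, which holds the sterol-sensing SREBP machinery in the endoplasmic reticulum, fell by 0.35 (SE 0.07, adjusted p = 0.00838) with 316, 294 and 307 CPM in controls 1 to 3 and 232, 251 and 235 in PA/OA 1 to 3, and its call ended without control 1 (adjusted p = 0.0634). Over 24 genes of fatty acid synthesis and desaturation 1 rose and 2 fell, with a median log2 change of 0.02. Beside Scd1 these were the synthase gene Fasn and the desaturase gene Scd2. Fasn had a log2 change of 0.19 (SE 0.05, adjusted p = 0.0458) but lost its call without control 1, 2 or 3 or PA/OA 1 or 2 (adjusted p = 0.093 to 0.184). Scd2 had a log2 change of −0.23 (SE 0.05, adjusted p = 0.0113) but lost its call without control 2 or PA/OA 3 (adjusted p = 0.0576 to 0.0612). Over 23 of cholesterol synthesis and uptake 1 rose and 1 fell, with a median of 0.08. B4galt5, an enzyme of glycosphingolipid synthesis, rose with 105, 103 and 107 CPM in controls 1 to 3 and 158, 140.1 and 145 in PA/OA 1 to 3 (log2 change 0.49, SE 0.09, adjusted p = 0.00343). It was the 1 gene called among 27 of the sphingolipid list (3.7%, against 2.82% called higher over all genes).

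Genes of matrix, adhesion and cell shape changed by smaller amounts. Of 20 YAP and TGF-beta targets 5 rose and 0 fell (list median 0.25), and 3 were called without control 1. Among the 5 were Cyr61 (log2 change 0.46, SE 0.07, adjusted p = 1.92e-04) and Ankrd1 (0.28, SE 0.05, adjusted p = 0.00206), both stable, and Ctgf and Bhlhe40. Ctgf had a log2 change of 0.28 (SE 0.06, adjusted p = 0.0121) but lost its call without control 1 (adjusted p = 0.0756). Bhlhe40 had a log2 change of 0.33 (SE 0.07, adjusted p = 0.0133) but lost its call without control 1 (adjusted p = 0.105). Col6a1, a chain of type VI collagen, was at 55.8, 59.3 and 58.1 CPM in controls 1 to 3 and 87.9, 86.4 and 85.2 in PA/OA 1 to 3 (log2 change 0.58, SE 0.11, adjusted p = 0.00357), and Itga2, the collagen-binding integrin alpha 2, at 515, 549.6 and 504 CPM in controls 1 to 3 and 658, 799 and 698 in PA/OA 1 to 3 (log2 change 0.46, SE 0.07, adjusted p = 6.77e-04). Colgalt1, which glycosylates collagen, and Ext1, which builds heparan sulfate, had log2 changes of 0.41 (SE 0.07, adjusted p = 0.00177) and 0.35 (SE 0.07, adjusted p = 0.00392). Ext1 was not called in the fit corrected for transcript length and GC. Rspo3, a secreted enhancer of Wnt signalling, was at 20.6, 15.4 and 17.4 CPM in controls 1 to 3 and 40.1, 33.9 and 42.8 in PA/OA 1 to 3 (log2 change 1.13, SE 0.17, adjusted p = 4.49e-04), and the guidance ligand Sema3c at 1373, 1420.3 and 1433 CPM in controls 1 to 3 and 1614, 1794 and 1841 in PA/OA 1 to 3 (log2 change 0.31, SE 0.06, adjusted p = 0.00322). Nt5e, the surface enzyme CD73 that makes adenosine from AMP, was at 34.7, 43.4 and 29.4 CPM in controls 1 to 3 and 72.8, 87.2 and 82.9 in PA/OA 1 to 3 (log2 change 1.18, SE 0.14, adjusted p = 2.56e-05). In each of them the 3 fatty acid libraries were the 3 highest, which for stable genes is part of the definition.

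Stable genes for proteins that bind actin or link it to the membrane changed in both directions. Vil1, the actin-bundling protein villin, was at 119, 112 and 98.4 CPM in controls 1 to 3 and 193, 176 and 175 in PA/OA 1 to 3 (log2 change 0.72, SE 0.10, adjusted p = 7.08e-05), and Cotl1, an actin-binding protein, at 36.8, 36.8 and 41.7 CPM in controls 1 to 3 and 61.9, 58.3 and 68 in PA/OA 1 to 3 (log2 change 0.71, SE 0.13, adjusted p = 0.00293). Ezr, the membrane linker ezrin, fell by 0.31 on the log2 scale (SE 0.06, adjusted p = 0.00349), with 2744, 2739 and 2838 CPM in controls 1 to 3 and 2451, 2089 and 2190.4 in PA/OA 1 to 3. Among 68 actin genes 6 rose and 1 fell with a median log2 change of 0.00 (−0.03 without PA/OA 1), and the count that rose was 1, 2 and 3 without controls 1 to 3 and 2 without PA/OA 2.

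Further stable rises fell into several roles. Irs2, an adaptor of the insulin receptor, was at 162, 166 and 162 CPM in controls 1 to 3 and 242, 240.2 and 202 in PA/OA 1 to 3 (log2 change 0.48, SE 0.09, adjusted p = 0.00225). It was the 1 gene called among 33 of insulin and growth hormone signalling (3.03%, against 2.82% called higher over all genes). Ctsc, the lysosomal dipeptidyl peptidase, was at 306, 330.4 and 309.7 CPM in controls 1 to 3 and 473, 461 and 462 in PA/OA 1 to 3 (log2 change 0.56, SE 0.07, adjusted p = 2.12e-05), and Grn, the lysosomal protein progranulin, at 128, 129 and 126 CPM in controls 1 to 3 and 185, 181 and 166 in PA/OA 1 to 3 (log2 change 0.47, SE 0.09, adjusted p = 0.00285). They were 2 of 5 lysosomal genes that rose of 59 tested (0 fell, median log2 change 0.08), and the other 3 were the cathepsins Ctse and Ctsl, named after their values were seen, and the hyaluronidase gene Hyal1. Ctse had a log2 change of 0.96 (SE 0.28, adjusted p = 0.0467) but lost its call without each of the 6 libraries in turn (adjusted p = 0.0788 to 0.156). Ctsl had a log2 change of 0.85 (SE 0.24, adjusted p = 0.0488) but lost its call without control 1 or 2 or PA/OA 1, 2 or 3 (adjusted p = 0.0562 to 0.242). Hyal1 had a log2 change of 0.92 (SE 0.21, adjusted p = 0.0123) but lost its call without PA/OA 3 (adjusted p = 0.0814). Without 1 library 2 to 4 lysosomal genes were called. The transcription factor gene Klf11 was at 24.8, 22.1 and 24.8 CPM in controls 1 to 3 and 49, 45 and 44 in PA/OA 1 to 3 (log2 change 0.94, SE 0.15, adjusted p = 6.42e-04), and the lysine methyltransferase gene Setd7 at 102, 96.9 and 114 CPM in controls 1 to 3 and 160.5, 180.2 and 163 in PA/OA 1 to 3 (log2 change 0.69, SE 0.10, adjusted p = 1.45e-04). Igf2bp2, which binds mRNA, was at 53.4, 63 and 54.3 CPM in controls 1 to 3 and 87.5, 95.4 and 78.8 in PA/OA 1 to 3 (log2 change 0.62, SE 0.12, adjusted p = 0.0045). Serpinb9b, of the family that inhibits granzymes, was at 93.3, 83.5 and 104 CPM in controls 1 to 3 and 168, 156 and 156 in PA/OA 1 to 3 (log2 change 0.77, SE 0.10, adjusted p = 5.23e-05), and the carboxypeptidase gene Cpe at 666, 725 and 719 CPM in controls 1 to 3 and 923, 859.8 and 925 in PA/OA 1 to 3 (log2 change 0.36, SE 0.06, adjusted p = 0.00162). Fam71f2, at a low level, had 3.85, 4.84 and 5.02 CPM in controls 1 to 3 and 13, 13.1 and 12.8 in PA/OA 1 to 3, a 2.83-fold rise (adjusted p = 0.00396). A further 4 stable rises, of Fam102b, Igsf8, Itpripl2 and Tmem59, had log2 changes between 0.46 and 0.52.

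The largest stable falls were in Ttr, given above, and Aqp1. Aqp1, a water channel that in liver marks bile duct cells, was at 37.4, 30.4 and 18.6 CPM in controls 1 to 3 and 9.35, 7.25 and 10.5 in PA/OA 1 to 3 and fell by 1.67 on the log2 scale (SE 0.25, adjusted p = 3.00e-04). Krt19, a keratin of bile duct cells, was at 1009, 847 and 927 CPM in controls 1 to 3 and 678, 616 and 589.6 in PA/OA 1 to 3 and fell by 0.56 (SE 0.07, adjusted p = 4.37e-05). Of the 6 bile duct markers tested these 2 were stable, and Krt7 had a log2 change of −0.27 (SE 0.06, adjusted p = 0.0139) but lost its call without control 1 or 2 or PA/OA 2 or 3 (adjusted p = 0.0513 to 0.0822). Muc1, Sox9 and Spp1 were not called, with log2 changes of 0.07 (SE 0.50, adjusted p = 0.964), 0.56 (SE 0.25, adjusted p = 0.218) and 0.96 (SE 0.42, adjusted p = 0.21). Summed over the 6 markers, levels were 2204, 2047 and 2088 CPM in controls 1 to 3 and 1725, 1558 and 1560 in PA/OA 1 to 3. Abundant markers such as Krt19 weigh most in this sum. The log2 change was above 0 in 3 of the 6 markers and below 0 in 3, with a median of −0.10. In bulk samples, fewer cells of a type and less RNA per cell cannot be told apart. Ranbp3l, a Ran-binding protein gene, was at 87, 73 and 87.2 CPM in controls 1 to 3 and 42.8, 43.4 and 46.7 in PA/OA 1 to 3 and fell by 0.90 (SE 0.12, adjusted p = 1.14e-04).

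Several enzymes and mitochondrial proteins were among the stable falls. Rida, a deaminase that clears reactive imines, was at 491, 481 and 502 CPM in controls 1 to 3 and 302, 318 and 375 in PA/OA 1 to 3 and fell by 0.57 on the log2 scale (SE 0.08, adjusted p = 1.14e-04). Maoa, the monoamine oxidase of the outer mitochondrial membrane, was at 698, 756 and 758 CPM in controls 1 to 3 and 523, 556 and 603 in PA/OA 1 to 3 and fell by 0.39 (SE 0.07). Hspe1, the co-chaperonin of the mitochondrial matrix, was at 559.6, 522 and 564 CPM in controls 1 to 3 and 383, 423 and 461 in PA/OA 1 to 3 and fell by 0.38 (SE 0.07). Cox14, which helps assemble cytochrome oxidase, fell by 0.52, Cox7a2, a subunit of that enzyme, by 0.36, and Tomm22, a receptor of the outer membrane import pore, by 0.32. S100a6, a calcium-binding protein and among the most abundant transcripts, was at 11156, 10319.7 and 8982 CPM in controls 1 to 3 and 7541, 8020.2 and 7863 in PA/OA 1 to 3 and fell by 0.38 (SE 0.06). Crip1, a LIM domain protein, fell by 0.40, Perp, a p53 target of cell junctions, by 0.32, Emg1, a methyltransferase of ribosome assembly, by 0.38, and Tmem238 by 0.53. In the fit corrected for transcript length and GC, Hspe1, Cox7a2 and Crip1 were not called (adjusted p = 0.0995, 0.216 and 0.173), and the other falls of these paragraphs from Aqp1 to Tmem238 that are stable were.

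Small falls were frequent in some lists of genes with short transcripts. Of 65 replication-dependent histone genes, which package new DNA and most of whose mRNAs lack poly(A) tails, 32 fell and 0 rose (49.2% of the list, median log2 change −0.36 against 0.01 over all genes). The number called was 8, 30 and 23 without controls 1 to 3 in turn and 48, 20 and 8 without PA/OA 1 to 3. The 8 stable ones included Hist4h4, which fell by 0.57 on the log2 scale from 916, 639 and 872 CPM in controls 1 to 3 to 598, 545 and 493 in PA/OA 1 to 3, and Hist1h4i, which fell by 0.55. Reads of the near-identical histone genes can be shared, so single members are uncertain. Of 79 cytosolic ribosomal protein genes, 19 fell and 0 rose (24.1%, median −0.15, 76 below 0). The number called was 2, 17 and 6 without controls 1 to 3 in turn and 29, 8 and 4 without PA/OA 1 to 3, and Rpl8 (0.26 lower on the log2 scale) and Rpl41 (0.32 lower) were stable. Of 71 oxidative phosphorylation genes of the nucleus, 9 fell and 0 rose (12.7%, median −0.19, 64 below 0), and the number called was 1, 6 and 3 without controls 1 to 3 in turn and 11, 1 and 2 without PA/OA 1 to 3. Mitochondrial ribosomal proteins had 1 of 65 called lower (Mrpl46, 1.54%, under the 2.24% of all genes) at a median of −0.17, and proteasome subunits 2 of 42 (Psmb6 and Psmc4, 4.76%) at −0.14. Mrpl46 had a log2 change of −0.52 (SE 0.11, adjusted p = 0.00947) but lost its call without PA/OA 3 (adjusted p = 0.0694). Psmb6 had a log2 change of −0.30 (SE 0.08, adjusted p = 0.0429) but lost its call without control 1 or 2 or PA/OA 2 or 3 (adjusted p = 0.051 to 0.248). Psmc4 had a log2 change of −0.23 (SE 0.06, adjusted p = 0.045) but lost its call without control 1, 2 or 3 or PA/OA 2 or 3 (adjusted p = 0.0544 to 0.182).

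**Figure D3:**
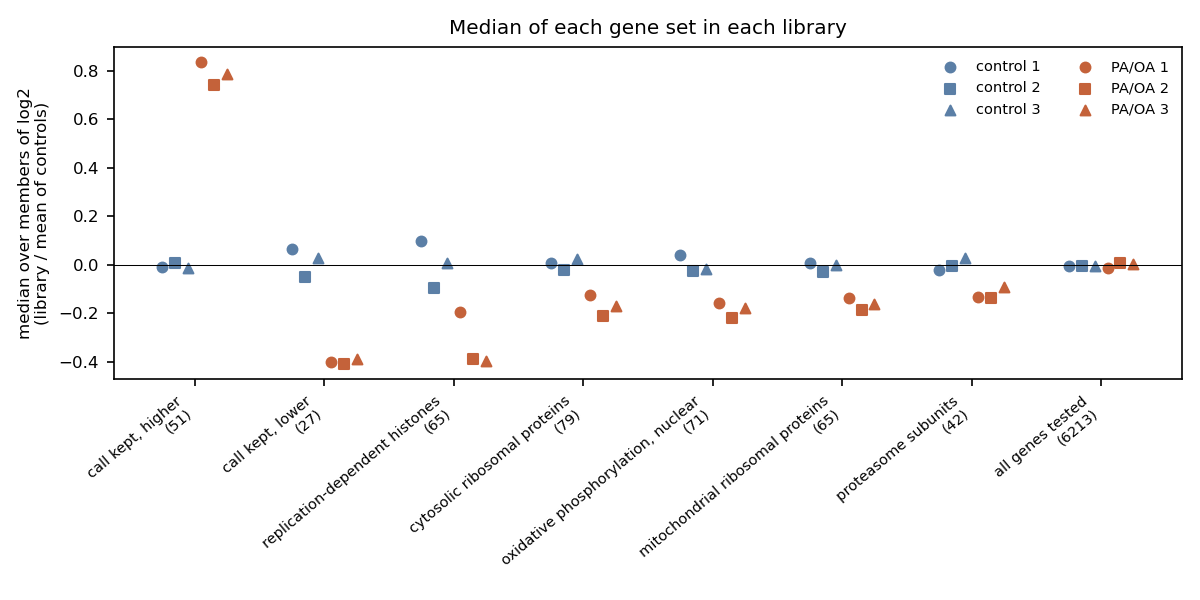
For each gene set and library, the median over its members of the log2 ratio of the library's level to the mean of the controls (controls blue, PA/OA orange, number of genes in brackets). The sets of stable genes are shown for reference only, since they were chosen on these values, and the histone, ribosomal, mitochondrial and proteasome sets lie below their controls in each fatty acid library, with PA/OA 1 nearest to them for the histones (−0.19 against −0.39 and −0.39).

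Transcript length moved with these falls. Genes were split into 5 equal classes by length. In the class of shortest genes (median length 1067 bases in the annotation used) 17 genes were higher and 92 lower, and in the class of longest genes (6061 bases) 64 were higher and 5 lower. The median log2 change rose over the classes from −0.12 through −0.02, 0.01 and 0.06 to 0.16. The shift also varied between libraries of a group: among the longest genes the median deviation from the mean of the 6 libraries was −0.08, −0.05 and −0.06 in controls 1 to 3 and −0.01, 0.20 and 0.06 in PA/OA 1 to 3, so PA/OA 2 stood highest and PA/OA 1 lay near the middle. With a smooth term for length and GC, 218 genes were called, 139 higher and 79 lower, and the median of ribosomal protein genes was 0.00, with 3 called lower. The same fit called 8 histone genes lower, at a median of −0.14, and 2 oxidative phosphorylation genes, at a median of −0.05. It called all 6 chemokine genes and 4 acute phase genes higher. The acute phase calls again included Saa3 and Lcn2, which are listed only through the fatty acid libraries. Of the stable genes 67 of 78 were called in it, and 10 of the 11 that were not had fallen, among them Rpl8, Rpl41 and 5 of the 8 histone genes. Whether length, the composition of the RNA or the treatment underlies the small falls was not tested.

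**Figure D4:**
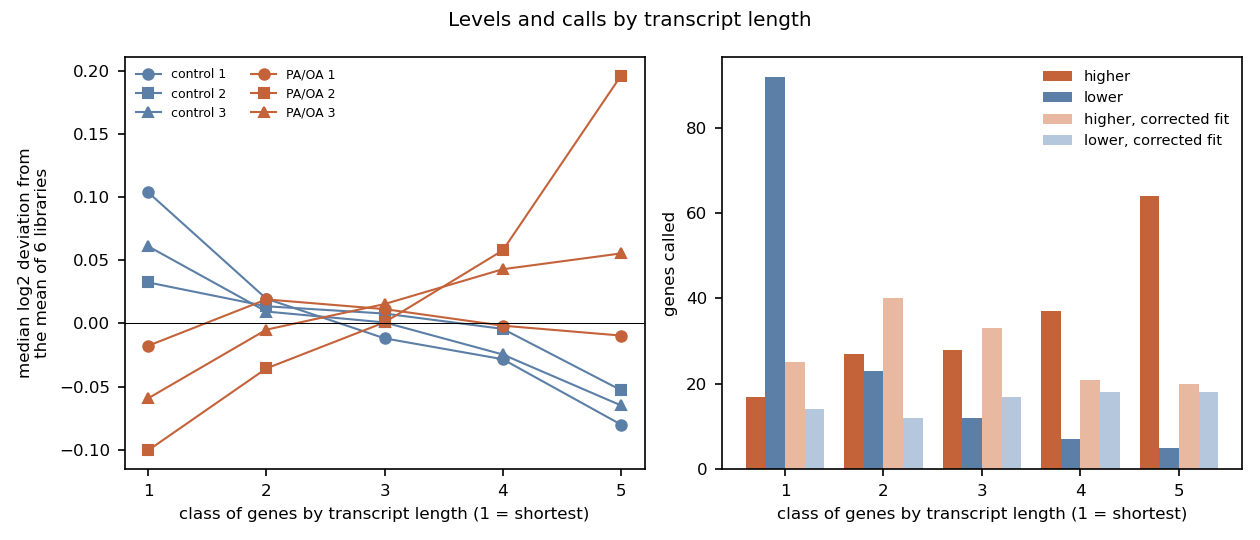
Left, the median log2 deviation of each library from the mean of the 6 libraries in 5 classes of genes ordered by transcript length. Right, the number of genes called higher and lower in each class, without and with a correction for length and GC, where 92 genes were lower in the shortest class without it and 14 with it.

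Other gene groups had few or no calls. Over all genes 2.82% were called higher and 2.24% lower, and lists near or under these shares say nothing about their members as a group. Of 45 chaperones and unfolded protein response genes of the endoplasmic reticulum, 1 rose and 0 fell (2.22%, median log2 change 0.08). It was the co-chaperone gene Dnajc3. Dnajc3 had a log2 change of 0.27 (SE 0.08, adjusted p = 0.0466) but lost its call without each of the 6 libraries in turn (adjusted p = 0.0517 to 0.189). The main chaperone gene Hspa5 had a log2 change of 0.05 (SE 0.24, adjusted p = 0.947) with overlapping groups. Among 31 genes of the integrated stress response 1 rose, the kinase gene Eif2ak2, and 1 fell, the serine synthesis gene Phgdh (3.23% each way). Eif2ak2 had a log2 change of 0.51 (SE 0.11, adjusted p = 0.0113) but lost its call without control 1 or PA/OA 3 (adjusted p = 0.0562 to 0.0758). Phgdh had a log2 change of −0.18 (SE 0.05, adjusted p = 0.0488) but lost its call without control 1, 2 or 3 or PA/OA 2 or 3 (adjusted p = 0.121 to 0.182). Ddit3, a mediator of stress-induced cell death, had −0.14 (SE 0.32, adjusted p = 0.876). No gene was called among 24 of autophagy, 42 ubiquitin-conjugating enzymes, 33 of the citrate cycle, 23 aminoacyl-tRNA synthetases, 37 of tRNA modification, 16 amino acid transporters and 13 ABC transporters in edgeR's test with all libraries. Of these 188 list members 30 had an unadjusted p under 0.05, DESeq2 called 5 and limma-voom 2. Over all 6213 genes the same counts were 1204, 533 and 311, so the 30 is no sign of a hidden change. Of 66 genes of mitosis 1 was called higher (1.52%), the transcription factor gene Foxm1. Of 54 of DNA replication 2 were called lower (3.7%), the histone chaperone gene Nasp and the replication protein gene Rpa3. Foxm1 had a log2 change of 0.41 (SE 0.12, adjusted p = 0.0463) but lost its call without control 1 or 3 or PA/OA 1, 2 or 3 (adjusted p = 0.0591 to 0.249). Nasp had a log2 change of −0.48 (SE 0.13, adjusted p = 0.0329) but lost its call without control 1, 2 or 3 or PA/OA 2 or 3 (adjusted p = 0.0635 to 0.164). Rpa3 had a log2 change of −0.46 (SE 0.13, adjusted p = 0.0429) but lost its call without control 1 or 3 or PA/OA 1, 2 or 3 (adjusted p = 0.0735 to 0.18). Over 155 zinc finger genes the median log2 change was 0.19, and 3 were called higher (1.94%), Zfp251 and the mRNA-binding Zfp36l1 and Zfp36l2. Zfp251 had a log2 change of 0.47 (SE 0.12, adjusted p = 0.0272) but lost its call without each of the 6 libraries in turn (adjusted p = 0.0501 to 0.0868). Zfp36l1 had a log2 change of 0.55 (SE 0.14, adjusted p = 0.028) but lost its call without control 1 or 2 or PA/OA 2 or 3 (adjusted p = 0.0696 to 0.189). Zfp36l2 had a log2 change of 0.36 (SE 0.09, adjusted p = 0.0207) but lost its call without control 1 or 3 or PA/OA 2 or 3 (adjusted p = 0.0584 to 0.142). In all, 195 of the 314 called genes belonged to 1 of the 74 lists and 119 to none.

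**Figure D5:**
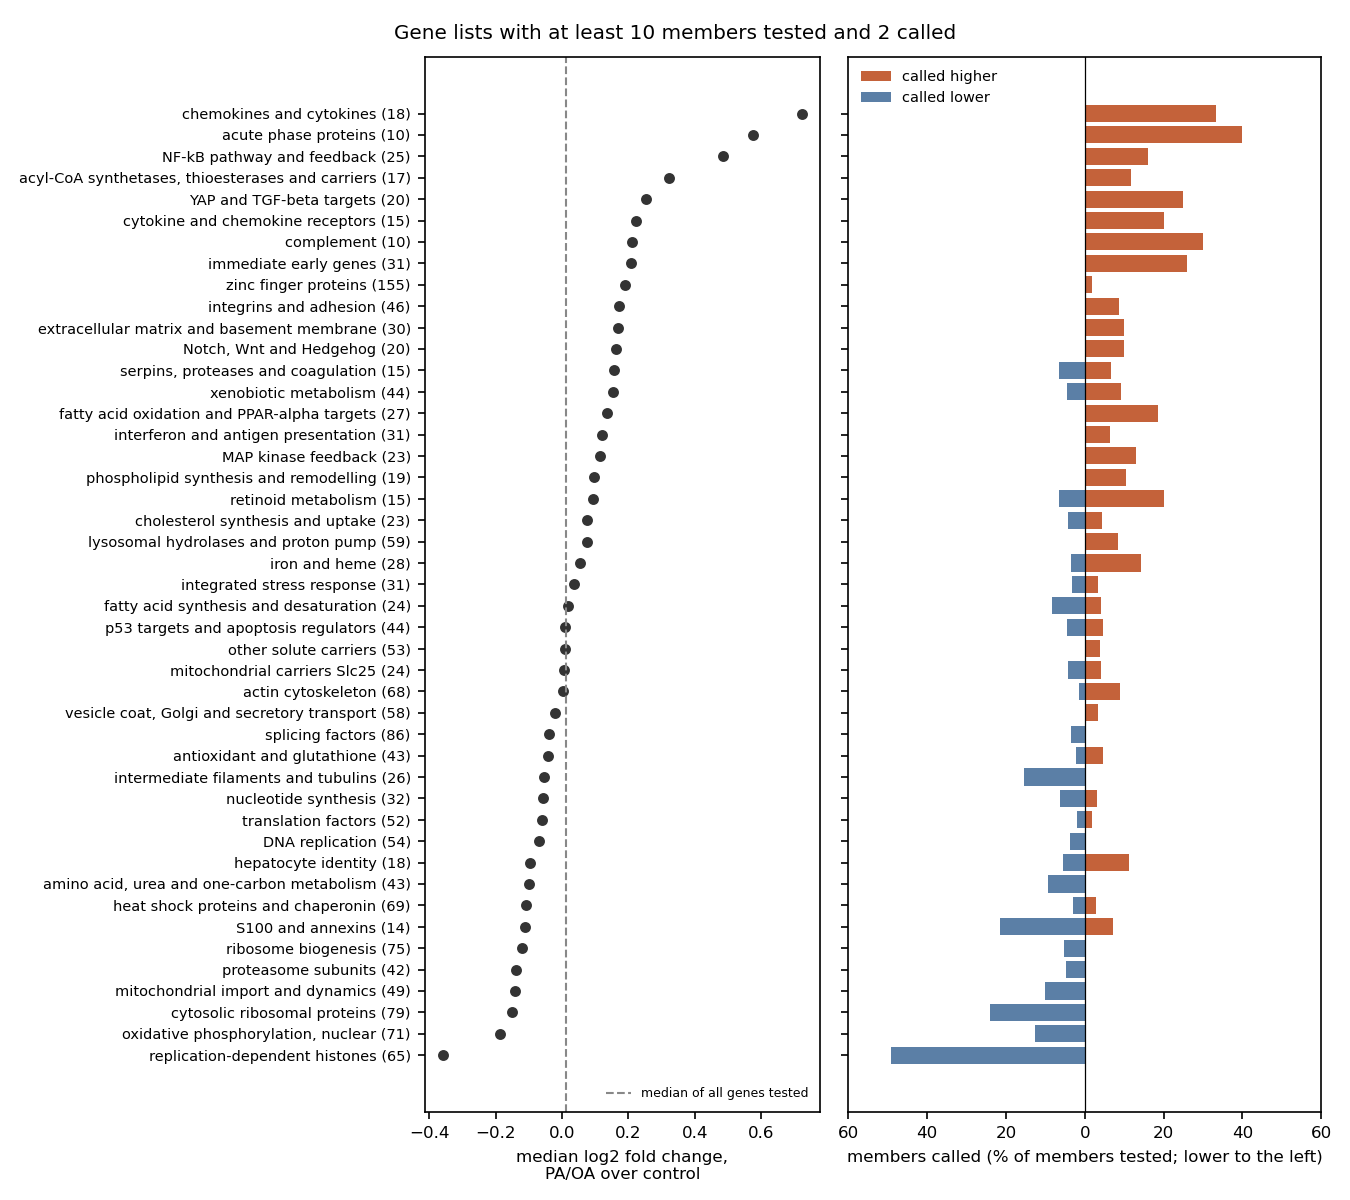
Gene lists with at least 10 members tested and 2 or more called, the number tested in brackets. Left, the median log2 change with the median of all genes as a dashed line, and right, the percentage of members called higher (orange) or lower (blue), with 4 of 10 acute phase and 6 of 18 chemokine and cytokine genes higher and 32 of 65 replication-dependent histones lower. The acute phase calls include Saa3 and Lcn2, which are listed only through the fatty acid libraries. With the correction for length and GC the histones called lower were 8.

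Genes that lie next to each other on a chromosome were at times called together. In the gene order of RefSeq, 2338 pairs of neighbouring protein-coding genes had both members tested, and in 29 pairs both were called in the same direction and in 1 pair in opposite directions. Pairs of histone genes with both symbols beginning with Hist made up 14 of the 29. Among the other 15 were Hist4h4 with the variant histone gene H2afj, Ccl2 with Ccl7 and Acot2 with Acot1. Aldh1a1 with Aldh1a7, Itga2 with Itga1 and Plin2 with Haus6 were there too. Some of these pairs are paralogs, whose reads can be shared. The number of such pairs to expect from the shares of genes called (2.82% higher, 2.24% lower) was not worked out, so the 29 is a description only.

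At the level of single transcripts 270 of 6936 (3.89%) were called, 148 higher (2.13%) and 122 lower (1.76%). Most called genes had 1 listed transcript (295), and 19 had several. In 0 genes were transcripts called in opposite directions, but few genes could show this. Among 651 genes with several listed transcripts, 15 had 1 or more called and 1 had all called. The log2 changes differed in sign in 1 of the 19 called genes, Anxa2 (−0.39, and 0.11 for a minor predicted transcript that was not called). Ctsc had both listed transcripts called, with log2 changes of 0.99 and 0.50. Apob had a main transcript that was called (1.00) and a minor predicted one that was not (0.75).

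Hepatocyte markers were listed at uneven levels. Albumin (Alb), the main plasma protein made by liver, was low at 12, 9.20 and 6.59 CPM in controls 1 to 3 and 8.04, 5.89 and 3.10 in PA/OA 1 to 3 and was not called (log2 change −0.71, SE 0.36, adjusted p = 0.299), and the keratins Krt8 and Krt18 of hepatocytes were abundant, with log2 changes of −0.07 (SE 0.04, adjusted p = 0.43) and −0.09 (SE 0.05, adjusted p = 0.299). Of 18 hepatocyte identity genes 2 rose and 1 fell (median log2 change −0.10), but 1 rose without control 3 or without PA/OA 3, and 2 fell without PA/OA 1. Among markers of other cell types, 0 endothelial and 0 blood markers were listed in this table, the stellate list had 1 member (Des), at 2.99 to 5.78 CPM in controls and 5.26 to 8.96 in PA/OA, and the neural list had 1. The 4 listed macrophage and leukocyte markers, Cd14, Cd68, Lyz2 and S100a8, summed to 639, 621 and 603 CPM in controls 1 to 3 and 826, 692 and 679 in PA/OA 1 to 3. The sum was higher in every fatty acid library than in any control, with 3 of the 4 markers above 0 in log2 change and Lyz2 below it (−0.15), and its part in the chemokine result was not tested. S100a8 was the 1 called, at 4.81, 6.82 and 5.52 CPM in controls 1 to 3 and 10.7, 17.4 and 13.4 in PA/OA 1 to 3. S100a8 had a log2 change of 1.28 (SE 0.29, adjusted p = 0.0136) but lost its call without control 1 or PA/OA 2 or 3 (adjusted p = 0.0576 to 0.105).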

How the data were processed

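RNA was measured in AML12 cells, 3 control and 3 PA/OA libraries. The table the authors deposited holds unnormalised read counts per RefSeq transcript, per the file headers. The submitters' processing notes list the tools bcl2fastq, HISAT2 2.2.5 and HTSeq 0.11.2 and a human build, although the transcripts are mouse. Details of counting, such as the mouse build, were not given in the sources used here. The table lists 6936 transcripts (5403 curated, 1533 predicted; lowest mean 56.8 counts), so weaker ones are not analysed here. Every gene compared is thus fairly well counted, but low genes such as Lcn2 have few control reads.

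Counts were summed over the listed transcripts of each of 6213 genes and tested by the quasi-likelihood method of edgeR 4.0.16 (R 4.3.3), with TMM scaling, the filterByExpr filter and no replicate term. Benjamini-Hochberg adjustment ran over all genes, with a threshold of 0.05. Each gene's levels are CPM. The biological coefficient of variation was 22.4%. The method was tested on simulated data. Alternatives were a replicate block, each library left out, DESeq2 1.42.0 (size factors, and its own test), upper quartile scaling, limma-voom (limma 3.58.1), no filter, a mean of at least 200 counts, curated transcripts only, and a correction for length and GC by natural splines of 4 degrees of freedom (97.9% of genes had both values). The correlation of same-numbered libraries across the groups was 0.0105 to 0.0178.

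The comparison, the 74 gene lists and the naming rule were chosen with earlier results of these data known. The rule named up to 15 rises and 15 falls of largest size among genes whose mean reached 50 counts, with groups that did not overlap and a call without each library, up to 3 called members per list, and Cxcl5, Cxcl1, Saa3, Lcn2, C3, Acot1, Cpt1a, Plin2, Ttr, Aqp1, Scd1, Insig1 and Apob. Genes not called are named as well-known members of their list and were chosen with their values seen. Some genes that met the rule are not reported here. Promoter sequences and neighbouring genes are from RefSeq (GRCm38.p6).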

Additional observations from a re-analysis of the deposited data

How the results depend on the processing

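Against the 314 genes called (175 higher, 139 lower), leaving out each library in turn gave 99 to 397 genes, 68 to 200 higher and 31 to 197 lower, with the lowest counts without control 1 and the highest without PA/OA 1. Among genes of the lists, 195 called, the range was 68 to 239, and for transcripts (270 called) it was 97 to 365. DESeq2's own test called 533 genes, 278 higher and 255 lower, with 300 in the lists. The correction for length and GC left 79 lower genes. Restricting the table to a mean of at least 200 counts raised the transcripts called to 408, with fewer transcripts tested. The other alternatives kept each of these counts within 1.5 times the values reported. Of the 314 called genes, Rplp1 alone changed sign in any of these fits (−0.20, and 0.01 with the length and GC correction). Medians of several lists did change sign, among them that of actin genes (0.00, and −0.03 without PA/OA 1), and the ribosomal protein median moved from −0.15 to 0.00 with that correction. In the fits to transcripts, 0 genes had transcripts called in opposite directions. Each of these fits had only 1 gene with several transcripts and all of them called, so the 0 says little. With the replicate number as a block, 303 genes were called (176 higher, 127 lower), 281 of them shared. Deviations of gene levels from the group mean correlated at no more than 0.0178 between same-numbered libraries, so the numbers were not taken as pairs. By that measure each library still correlated best with its own number. The depth of the table limits low genes: Lcn2 had 6, 0 and 1 control counts.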
